A study of Mus musculus with 4 samples.

Results

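Immunoglobulin light chain variable (V) genes were taken as all genes of the deposited count table whose symbol begins with Igkv (kappa) or Iglv (lambda) and which had at least 1 UMI (unique molecular identifier, 1 counted RNA molecule). Of 163 such symbols among the 31053 genes of the table, 89 had a UMI, 86 of them kappa and 3 lambda, and 74 had none. The tissue was tibia, proximal and distal ends, from mice at 8 weeks of age, and single cells were measured by 10x Genomics droplet RNA sequencing. All cells belonged to 1 group, with the genotype Col10a1Cre;Rosa26-Tdtomato;Irx3 +/Δ;Irx5 +/-, which the labels call the heterozygous control, and the title gives no PTH (parathyroid hormone) treatment. The Col10a1 promoter is active in hypertrophic cartilage and not in B cells, so the Cre is not directed at the cells described here, while the other Irx3 and Irx5 alleles are present in all of them. The 4 sample records were pooled in 1 table with 1 barcode suffix, so every value below comes from 1 library, without replicates and without a test between groups.

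A light chain gene is assembled in the developing B cell by joining 1 of many V segments to a J segment, which is then spliced to a constant region. Before that, in pro-B and large pre-B cells, the heavy chain pairs with the surrogate light chain made by Igll1 and Vpreb1. Recombination by Rag1 and Rag2 starts at the kappa locus in most small pre-B cells, lambda is used more rarely in mice, and a B cell that has made a working receptor normally keeps a single light chain. Unrearranged V segments can also be transcribed at a low level, and counts per gene do not tell these transcripts from rearranged ones.

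The downstream ends of the V segments that the results turn on are shown because this stretch borders the joint with the J segment. They are the last 60 bases of the reference transcripts of GENCODE M21 (build GRCm38, the same assembly as mm10), written in the direction of transcription. Capitals mark the bases after the codon of the conserved second cysteine, which is where the V segment's share of the third hypervariable loop begins. Igkv1-35 (chr6:70010949-70011673, minus strand) and Igkv1-135 (chr6:67609713-67610508, plus strand) led before the plasma cell stage. Igkv1-117 (chr6:68121046-68121827, plus strand) and Iglv1 (chr16:19085017-19085500, minus strand) led in plasma cells. Iglv2 (chr16:19260401-19260859) and Iglv3 (chr16:19241207-19241690), both on the minus strand, complete the lambda V genes.
Igkv1-35: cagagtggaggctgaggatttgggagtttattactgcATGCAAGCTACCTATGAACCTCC
Igkv1-135: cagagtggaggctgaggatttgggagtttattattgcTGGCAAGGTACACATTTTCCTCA
Igkv1-117: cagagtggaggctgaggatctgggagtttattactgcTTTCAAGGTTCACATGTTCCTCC
Iglv1: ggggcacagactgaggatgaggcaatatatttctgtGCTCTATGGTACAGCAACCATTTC
Iglv2: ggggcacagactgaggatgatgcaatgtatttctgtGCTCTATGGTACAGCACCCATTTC
Iglv3: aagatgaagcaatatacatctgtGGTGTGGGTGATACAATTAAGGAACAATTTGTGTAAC

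Over whole transcripts, Igkv1-35 and Igkv1-135 were 75.9% identical and shared no run of 50 bases, so reads of that length from 1 of them do not match the other exactly. Igkv1-117 and Igkv1-110 were 96.8% identical and shared 177 runs of 50 bases, and Iglv1 and Iglv2 were 86.4% identical and shared 76. Counts of Igkv1-117 against Igkv1-110, and of Iglv1 against Iglv2, are uncertain to that extent. In Igkv1-35, 96.8% of 50-base runs occurred in no other reference V transcript, against 63.5% in Igkv1-135, 50.1% in Igkv1-117 and 100% in Iglv3. The median kappa V gene had 77.0% unique runs among the 77 with a UMI, 69.1% among the 29 with 10 or more and 75.1% among the 23 without a UMI. The part of shared sequence in the counts was not tested.

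Light chain V transcripts were rare. The whole table held 1770 V UMIs out of 90273806 UMIs (0.00196%), of which 1294 (73.1%) were kappa and 476 lambda. The median member had 5 UMIs. A single UMI was found for 22 members, 2 to 9 UMIs for 35, and 10 or more for 32, and the 5 leading genes held 885 UMIs (50%). These were Iglv1 with 383, Igkv1-135 with 144, Igkv1-117 with 137, Igkv1-35 with 127 and Igkv8-24 with 94. Iglv3 followed with 88, and Iglv2 had 5. By the annotation, 80 of 103 genes classed as V genes had a UMI, with 1743 UMIs in all. Only 9 of the 60 annotated pseudogenes did, with 27 UMIs, 13 of them in Igkv14-126-1.

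Stages were set by UMI counts of genes other than the V genes. Among cells with at least 3 UMIs of Cd79a plus Cd79b (parts of the B cell receptor), pro-B and large pre-B cells had at least 3 UMIs of Igll1 plus Vpreb1 and none of Ms4a1 or Ighd. Small pre-B cells had Rag1 or Il2ra without Ms4a1, immature B cells had Ms4a1 (the CD20 gene) without Rag1 or Il2ra, and both had at most 1 Ighd UMI. The mature B gate required at least 2 UMIs of Ighd, the constant region of IgD, and plasma cells at least 20 of Jchain, the joining chain of secreted IgA and IgM. This gave 299 pro-B and large pre-B, 1183 small pre-B, 144 small pre-B cells with Ms4a1, 528 immature, 694 in the mature B gate and 50 plasma cells. Median depths were 8847, 2870, 2683, 2797, 3011 and 17562 UMIs in that order.

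Genes outside the gates were used to check these names. Dntt, the enzyme that adds bases at joints, was at 404 CPM (UMIs of the gene scaled to a common total per stage) in pro-B and large pre-B cells and 15.1 in small pre-B cells. Rag2 was highest in small pre-B cells, at 114 CPM. The small pre-B gate also holds cycling cells. Mki67, a gene of cycling cells, was at 814 CPM there, in 30.8% of cells. In pro-B and large pre-B cells it was at 809 CPM, in 64.9% of cells. Plasma cells had 1484 CPM of Xbp1 and 2344 of Mzb1, both secretory genes, and 205 of Tnfrsf17. The mature B gate was mixed. Fcer2a, the CD23 gene of mature B cells, was at 106 CPM there and at 97.6 in immature cells, while the cycling gene Mki67 was at 583 CPM and Rag1 at 177, with a Rag1 UMI in 26.4% of its cells. It is therefore called the mature B gate and not mature B cells. The check genes of the immature stage were split. Cd93 and Cd24a, at 101 and 493 CPM, were lower there than in every other stage before plasma. Spib and Ighm, at 721 and 5426 CPM, were above the mature B gate (457 and 4512). The name immature cells thus stands for the gate only. Immature cells carried 561 CPM of Elane and 650 of Mpo, granule genes of myeloid progenitors, in 3.41% and 7.58% of cells. Over 14 markers of other cells, the summed level ran from 1469 CPM in pro-B and large pre-B cells to 4255 in immature cells and 6424 in plasma cells. Between 10 and 13 of the 14 were above 0 in each stage, and Siglech, required to be 0, was at 0 in all 6. The part of these markers in the results was not tested.

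V transcripts were rarer in pro-B and large pre-B cells than in small pre-B cells. At full depth, 22 of 299 pro-B and large pre-B cells (7.36%) and 131 of 1183 small pre-B cells (11.1%) had a V UMI. Their depths differ, so each cell was also thinned to 1000 UMIs, which left out 21 shallower cells before the plasma stage and 1 plasma cell. The share was then 1.01% in pro-B and large pre-B cells (95% interval 0.209 to 2.92, exact Clopper-Pearson, counting error only as for all intervals here). It was 4.70% (3.56 to 6.08) in small pre-B cells, and these intervals do not overlap. They do overlap at 500 UMIs (0.0811 to 2.40 against 1.24 to 2.90), at 2000 UMIs (1.43 to 5.83 against 5.37 to 8.69) and at full depth (4.67 to 10.9 against 9.34 to 13.0). Immature cells had 2.10% (1.05 to 3.73) and the mature B gate 3.03% (1.88 to 4.59), against 8.52% and 10.4% unthinned. The intervals of neighbouring stages from small pre-B to the mature B gate overlap. Plasma cells stood apart, with a V UMI in all 50 and, after thinning, in 59.2% (44.2 to 73.0).

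Cells that should lack these genes showed how much free RNA could add. A V UMI was found in 6 of 2476 neutrophils (0.242%) at a median depth of 4855 UMIs, and in 1 after thinning (0.0415%). None of 1329 erythroid cells had one, which after thinning allows a share of up to 0.228%. None of 332 cells gated on T and NK genes had one, which allows up to 0.909% after thinning, but these cells also held 5542 CPM of Elane. The pro-B and large pre-B interval begins at 0.209%, within the neutrophil interval that ends at 0.231%, so at 1000 UMIs a V signal above background was not separable there. At full depth it was, with the interval beginning at 4.67% against a neutrophil interval ending at 0.527%, although the median depth of the former was higher. The constant region was far easier to see. An Igkc UMI was present after thinning in 26.6% of pro-B and large pre-B cells, 73.8% of small pre-B cells, 82.0% of immature cells and 98.0% of plasma cells, over a share of 7.89% in neutrophils.

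**Figure D1:**
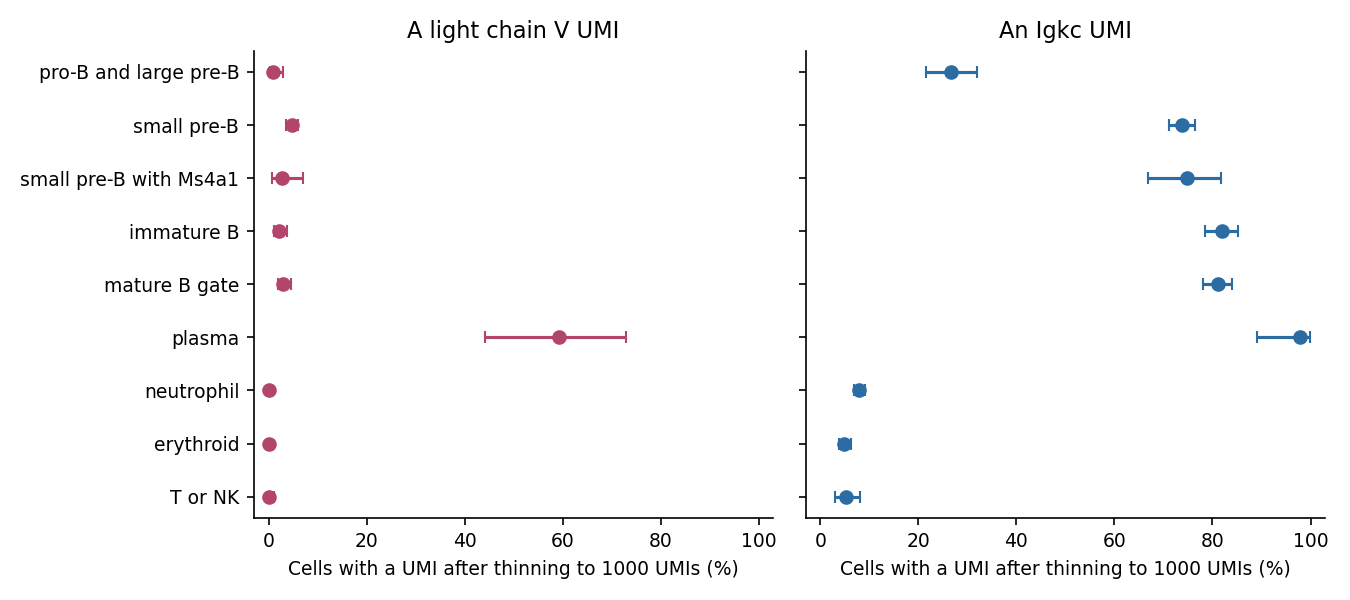
Share of cells (%) with at least 1 UMI of any light chain V gene (left) or of Igkc (right) after each cell was thinned to 1000 UMIs, by stage; points are shares and bars 95% exact intervals for counting error. V detection stays below 5% before the plasma stage and reaches 59.2% in plasma cells, while Igkc is already at 73.8% in small pre-B cells.

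Summed kappa V levels were lowest in the earliest stage and highest in plasma cells. Kappa V stood at 7.01 CPM (4.49 to 10.4, exact Poisson interval) in pro-B and large pre-B cells and at 27.3 CPM (22.9 to 32.3) in small pre-B cells. It was 41.0 (26.5 to 60.5) in small pre-B cells with Ms4a1, 24.5 (18.2 to 32.4) in immature cells and 24.3 (19.1 to 30.5) in the mature B gate. The small pre-B cells with Ms4a1 were high by this measure and, with 4 positive cells, low by the thinned share (2.80%), so no order is read for them. Plasma cells had 694 CPM (641 to 750). Igkc, the kappa constant region, stood at 346, 1919, 2696, 3041, 2434 and 251675 CPM over these 6 stages. Kappa V UMIs per 1000 Igkc UMIs were 20.3 (13.0 to 30.1) in pro-B and large pre-B cells, 14.2 (11.9 to 16.8) in small pre-B cells, 15.2 (9.83 to 22.4) in those with Ms4a1 and 8.07 (5.97 to 10.7) in immature cells. The ratio was 9.99 (7.86 to 12.5) in the mature B gate and 2.76 (2.55 to 2.98) in plasma cells. The plasma interval lies below those of all earlier stages, but it leaves out the spread between plasma cells.

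Lambda V was scarce before the plasma stage. Only 1 of 25 V UMIs in pro-B and large pre-B cells was lambda, and 26 of 162 in small pre-B cells (16.0%, 10.8 to 22.6). Lambda made up 10.9% (4.11 to 22.2) in immature cells and 10.7% (5.02 to 19.4) in the mature B gate. These intervals overlap. In plasma cells lambda V was 375 of 1009 V UMIs (37.2%, 34.2 to 40.2). This last interval treats UMIs as independent, while single plasma cells held from 1 to 64 V UMIs. It is thus too narrow for the spread between cells. The lambda share of constant region UMIs went the other way, from 29.6% in small pre-B cells and 36.5% in immature cells to 8.88% in plasma cells.

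The lambda genes differed mainly in plasma cells. Iglv1, which usually joins to Iglc1 or Iglc3, had 0 UMIs in pro-B and large pre-B cells, 13 in small pre-B, 1 in those with Ms4a1, 3 in immature, 5 in the mature B gate and 336 in plasma cells. Before the plasma stage its 22 UMIs lay in 22 different cells. Iglv3 had 1, 12, 4, 3, 4 and 37 UMIs in the same order, with at most 8 in 1 cell. Before the plasma stage Iglv1 and Iglv3 were thus at like counts, 22 and 24 UMIs. Iglv2 had 1 UMI in small pre-B cells, 1 in those with Ms4a1 and 2 in plasma cells.

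When cells before the plasma stage were classed by their constant regions, the pooled lambda V share was higher in lambda cells. By stage the intervals separated only in small pre-B cells. This split was chosen after the data had been seen. It takes cells with at least 5 light chain constant UMIs, as lambda where at least 80% and as kappa where at most 20% were from Iglc1 to Iglc3. Before the plasma stage 1241 cells were kappa, 306 lambda and 732 mixed. Lambda V made up 15 of 42 V UMIs (35.7%, 21.6 to 52.0) in the lambda cells and 23 of 193 (11.9%, 7.71 to 17.3) in the kappa cells. Cells classed as lambda still held 27 kappa V UMIs. In small pre-B cells the shares were 50% (24.7 to 75.3) in lambda and 14.0% (7.66 to 22.7) in kappa cells. In immature cells they were 33.3% (7.49 to 70.1) and 5.00% (0.127 to 24.9). The mature B gate had 14.3% (0.361 to 57.9) and 12.3% (5.08 to 23.7). Of all cells with enough constant UMIs, lambda cells were 16.6% (14.3 to 19.1) in small pre-B cells, 12.4% (9.66 to 15.7) in immature cells and 8.36% (6.29 to 10.8) in the mature B gate. Mixed cells were 19.5%, 48.6% and 40.2%. Over kappa and lambda cells alone, the lambda share was 20.6% (17.8 to 23.7), 24.2% (19.1 to 29.98) and 14.0% (10.6 to 18.0), so the order of small pre-B and immature cells turns with the denominator. By either denominator the mature B gate had the lowest share of these 3. Its interval overlaps that of immature cells by the first denominator and that of small pre-B cells by the second.

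A small set of kappa genes led before the plasma stage. Over the 5 earlier stages 357 V UMIs came from 58 genes in 299 of 2848 cells. Igkv1-35 held 71 of them (19.9%) in 58 cells and Igkv1-135 held 55 (15.4%) in 50 cells. Iglv3 followed with 24, Iglv1 and Igkv19-93 with 22 each, Igkv1-110 with 16, Igkv1-117 with 14 and Igkv12-46 with 12. Igkv1-35 was first in pro-B and large pre-B cells, small pre-B cells and the mature B gate, and Igkv1-135 in immature cells and in small pre-B cells with Ms4a1.

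**Figure D2:**
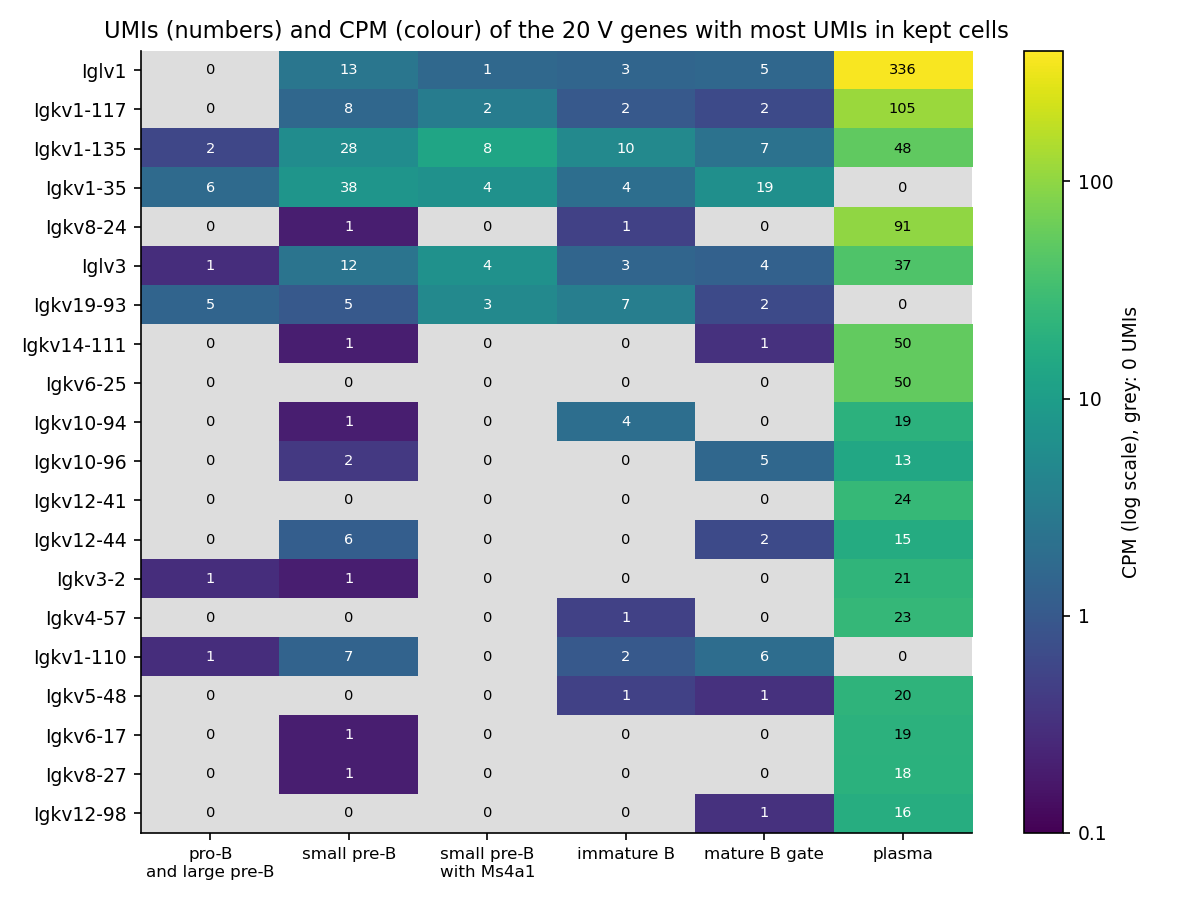
UMIs (numbers in the cells) and CPM (colour, log scale, grey for 0 UMIs) of the 20 light chain V genes with most UMIs in cells that passed all filters, by stage. Igkv1-35 has 38 UMIs in small pre-B cells and 0 in plasma cells, and Iglv1 has 336 of its UMIs in plasma cells.

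Igkv1-35 was higher in small pre-B cells than in pro-B and large pre-B cells or immature cells, and had 0 UMIs in plasma cells. It had 6 UMIs in pro-B and large pre-B cells, 38 in small pre-B cells, 4 in those with Ms4a1, 4 in immature cells, 19 in the mature B gate and 0 in plasma cells. Its level was 1.75 CPM (0.643 to 3.81) in pro-B and large pre-B cells and 7.63 (5.40 to 10.5) in small pre-B cells. It was 2.00 (0.546 to 5.13) in immature cells and 6.16 (3.71 to 9.62) in the mature B gate. Small pre-B cells with Ms4a1 had 6.55 CPM (1.79 to 16.8). The small pre-B interval overlaps this one and that of the mature B gate, so no order is read among these 3. Within the mature B gate, 15 of the 19 UMIs lay in the 212 cells that also had a Rag1 or Il2ra UMI, at 13.3 CPM (7.42 to 21.9). The 482 cells without one had 4 UMIs, at 2.05 CPM (0.558 to 5.24), and these intervals do not overlap. Median depths of these cells were 4725 and 2816 UMIs. In pro-B and large pre-B cells the same split gave 2.54 CPM (0.691 to 6.49) with and 1.08 (0.131 to 3.91) without, with overlapping intervals. Rag1 encodes the recombinase and Il2ra marks the pre-B stage. The gates fix this split in small pre-B and immature cells, so it is not given there, and it was chosen after the data had been seen.

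Igkv1-135, the V gene farthest out among the leaders, had 2, 28, 8, 10, 7 and 48 UMIs over the 6 stages. Its level was 0.584 CPM (0.0707 to 2.11) in pro-B and large pre-B cells, 5.62 (3.74 to 8.12) in small pre-B cells and 5.01 (2.40 to 9.21) in immature cells. Small pre-B cells with Ms4a1 had 13.1 CPM (5.66 to 25.8), the highest before the plasma stage, with an interval that overlaps that of small pre-B cells. Plasma cells had 52.5 CPM, with all 48 UMIs in 3 cells. In the mature B gate it was at 2.27 (0.912 to 4.68). Within the mature B gate it stood at 5.30 CPM (1.95 to 11.5) in cells with Rag1 or Il2ra and at 0.512 (0.0130 to 2.85) in cells without. In pro-B and large pre-B cells these values were 0.634 and 0.541 CPM. The intervals overlap in both stages.

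Igkv19-93 was found mostly outside the small pre-B gate. It had 5 UMIs in pro-B and large pre-B cells, 5 in small pre-B, 3 in those with Ms4a1, 7 in immature, 2 in the mature B gate and 0 in plasma cells. Another 26 lay in B lineage cells that met none of the stage gates, where it was the first V gene, with 28.6% of 91 V UMIs. Of these, 18 fell in 280 cells with at least 3 UMIs of Igll1 plus Vpreb1 together with Ms4a1 or Ighd, a group with 217 CPM of Dntt. The level of Igkv19-93 was 4.35 CPM there and 3.83 CPM in the 358 cells with fewer surrogate light chain UMIs.

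Counts of V genes that passed a 2-fold difference between neighbouring stages were small, because at least 20 UMIs over both stages were required. From pro-B and large pre-B to small pre-B cells, 2 of 2 V genes tested were higher, where 10.0% of 10341 genes tested were higher and 7.38% lower. Igkv1-135 was 9.63-fold and Igkv1-35 4.36-fold higher. From small pre-B to immature cells none of 2 was higher (7.48% of all genes) and 1 was lower (11.1% of all genes). This was Igkv1-35, with a ratio of 0.263, while Igkv1-135 had a ratio of 0.891. In both of these steps the 2 genes passed the filter through their small pre-B counts. A higher value in the first step and a lower value in the second were thus favoured by it. From immature cells to the mature B gate the 1 gene tested, Igkv1-35, was 3.08-fold higher (5.11% of all genes were higher and 2.59% lower). It passed mainly through its 19 UMIs in the mature B gate, against 4 in immature cells, so this direction was favoured too. With the mature B gate restricted to 395 cells with Ms4a1 and without Rag1 or Il2ra, a choice made after the data had been seen, Igkv1-35 had 2 UMIs and 1.28 CPM, and no V gene was higher. That restricted gate had 158 CPM of Fcer2a and 198 of Mki67.

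From the mature B gate to plasma cells 11 of 11 V genes tested were higher, where 4.23% of genes were higher and 64.0% lower. A V gene passes the filter here mainly through its plasma cell counts, so the 11 do not stand for all members. Iglv1 rose from 1.62 to 368 CPM, a ratio of 227, Igkv1-117 from 0.648 to 115 CPM (177-fold) and Igkv14-111 from 0.324 to 54.7 CPM (169-fold). The smallest ratios among genes with a UMI on both sides were those of Igkv1-135 (23.1) and Iglv3 (31.2). Igkv8-24 and Igkv6-25 had 0 UMIs in the mature B gate, and against 3 counts over that gate they were at least 102-fold and at least 56.3-fold higher. Igkv3-2 (at least 23.6-fold) and Igkv4-57 (at least 25.9-fold) were also at 0 there. Most of these UMIs came from 1 or a few plasma cells per gene. Igkv6-25, for instance, had 50 UMIs, all in 1 cell.

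Some leading genes of the early stages were also found in plasma cells and others had no UMI there. Igkv1-135, the second gene before the plasma stage, had 48 plasma UMIs in 3 cells. Iglv3 was found in 17 and Iglv1 in 40 of the 50 plasma cells. Plasma cells held 1009 V UMIs from 36 genes, and 24 genes were found on both sides, which is 41.4% of the 58 genes of earlier stages and 66.7% of the plasma genes. Over all genes with a UMI in these cells the shared part was 68.4% of 16122 and 98.5% of 11198. Igkv1-35, first before the plasma stage, had 0 of 1009 plasma V UMIs, which allows a share of up to 0.297%. It was in 0 of 50 cells, which allows up to 6%, the share of cells that had Igkv1-135. The limit on its plasma level is 3.28 CPM, against 5.04 CPM (3.93 to 6.35) in earlier stages. Over genes other than immunoglobulins the limit is 6.85 CPM, above the 5.07 CPM (3.96 to 6.40) of earlier stages. Both limits treat UMIs as independent, and 1 plasma cell can hold many UMIs of a gene. A lower plasma level is therefore not shown on either scale. Igkv19-93, Igkv1-110, Igkv12-46 and the pseudogene Igkv14-126-1, with 22, 16, 12 and 9 UMIs earlier, were also at 0 in plasma cells. UMIs of 1 plasma cell share their source, so the shares and limits over UMIs on the plasma side follow 50 cells.

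Counts did not rise or fall steadily along the kappa locus, and its middle part held the fewest UMIs. The kappa V genes lie between 18.4 and 3166 kb from Igkj1, the first J segment of the locus on chromosome 6. Of the annotated V genes within 1000 kb, 30 of 40 had a UMI, against 21 of 31 at 1000 to 2000 kb and 26 of 29 farther out. These 3 intervals held 39.5%, 12.9% and 47.6% of kappa V UMIs before the plasma stage and 47.0%, 8.83% and 44.2% in plasma cells. Igkv1-35 lies 711 kb and Igkv1-135 lies 3112 kb from Igkj1, so the leaders of the early stages come from opposite parts of the locus. By strand, 37 genes with a UMI lay on the plus and 49 on the minus strand.

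**Figure D3:**
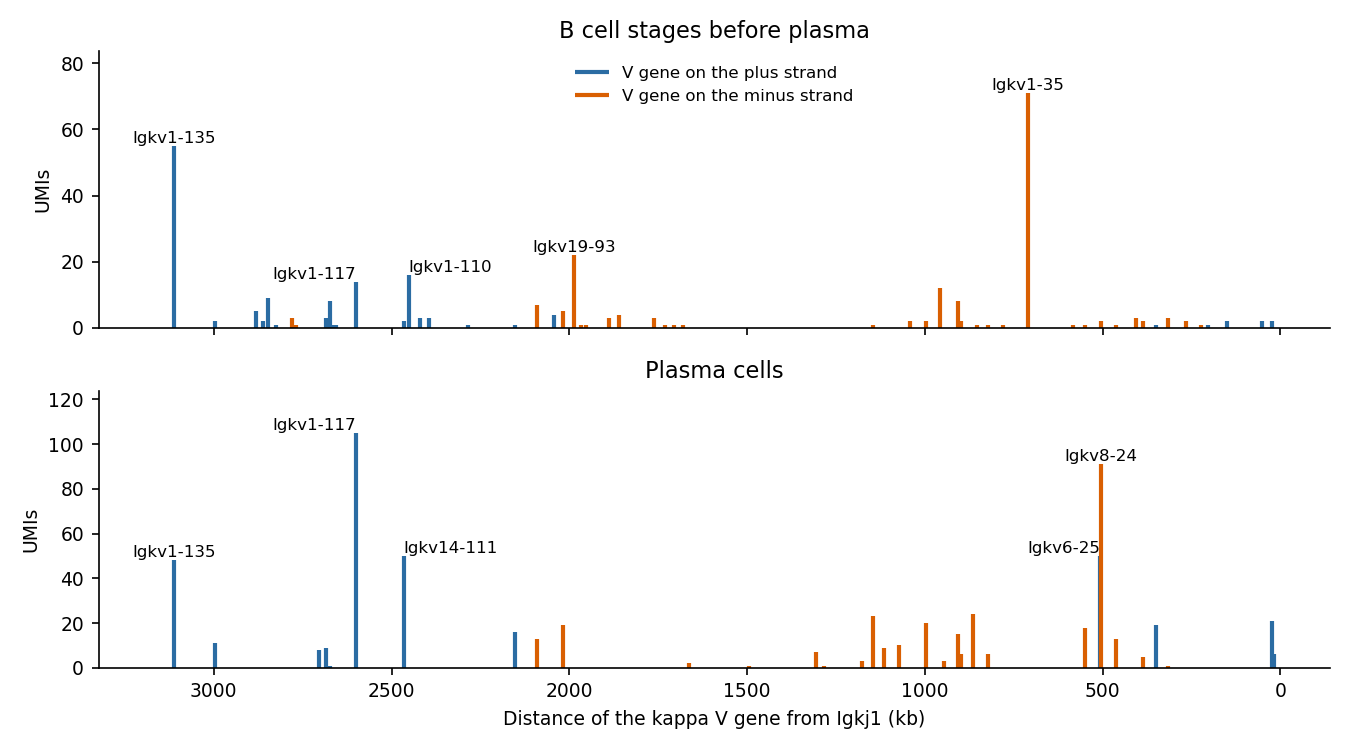
UMIs of each kappa V gene (vertical lines, coloured by strand) against its distance from Igkj1 in kb, in B cell stages before plasma (top) and in plasma cells (bottom); the 5 leading genes are named. Igkv1-35 and Igkv1-135 stand out before the plasma stage with 71 and 55 UMIs, while Igkv1-117 and Igkv8-24 lead in plasma cells with 105 and 91.

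Use of a single V gene per cell could be measured in plasma cells only. No cell of an earlier stage had 5 V UMIs: 255 cells had 1, 33 had 2, 8 had 3 and 3 had 4. The 10 genes most often dominant in immature and mature B cells, which were to be named, thus do not exist in these data. Among the 44 earlier cells with at least 2 V UMIs, a measure added after the data had been seen, 19 (43.2%, 28.3 to 59.0) had all of them from 1 gene. That gene was Igkv1-35 in 7 cells and Igkv1-135 in 4. Another 22 cells held 2 genes and 3 held 3 or more. In small pre-B cells 10 of 20 and in immature cells 2 of 10 were of a single gene, with intervals of 27.2 to 72.8% and 2.52 to 55.6%.

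Of the 50 plasma cells, 43 had at least 5 V UMIs, and in 21 of these (48.8%, 33.3 to 64.5) at least 80% came from 1 gene. The dominant gene was kappa in 18 cells and lambda in 3 (14.3%, 3.05 to 36.3), and 15 genes were dominant in at least 1 cell. Igkv8-24 and Iglv1 were dominant in 3 cells each and Igkv1-117 and Igkv1-135 in 2 each. All 22 cells without a dominant gene had lambda V UMIs, and in 20 of them Iglv genes ranked first or second. Igkv1-35, Iglv3 and Igkv19-93, which had 127, 88 and 85 UMIs in the table, were dominant in no cell. For Igkv1-35 and Igkv19-93 the rule fixed this outcome. Both had 0 UMIs in plasma cells, the only cells that could be scored, and at most 3 in any cell.

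Counting kappa V UMIs alone, a choice made after the data had been seen, most plasma cells used a single gene. Of 36 plasma cells with at least 5 kappa V UMIs, 32 (88.9%) had a dominant kappa gene, and in 23 cells a single kappa gene held all of them. The 32 cells used 21 genes. Igkv1-117 and Igkv8-24 led in 4 cells each, Igkv1-135 and Igkv14-111 in 3 each, Igkv5-48 in 2, and 16 other genes in 1 each. The highest counts in a cell were 53 UMIs of Igkv1-117 and 50 of Igkv6-25. The 4 cells below 80% had 23 Igkv8-24 and 6 Igkv3-1 UMIs, 10 Igkv4-53 and 3 Igkv14-111, 10 Igkv6-17 and 8 Igkv1-133, and 6 Igkv6-23 and 3 Igkv1-133. Their depths of 20362, 17303, 40539 and 34750 UMIs include the highest of the plasma cells. By heavy chain constant region, 39 plasma cells were led by Igha, 6 by Ighg2b, 4 by Ighg2c and 1 by Ighg1. All 4 Igkv8-24 cells were Igha cells, while the 4 Igkv1-117 cells were 2 Igha and 2 Ighg2b cells.

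**Figure D4:**
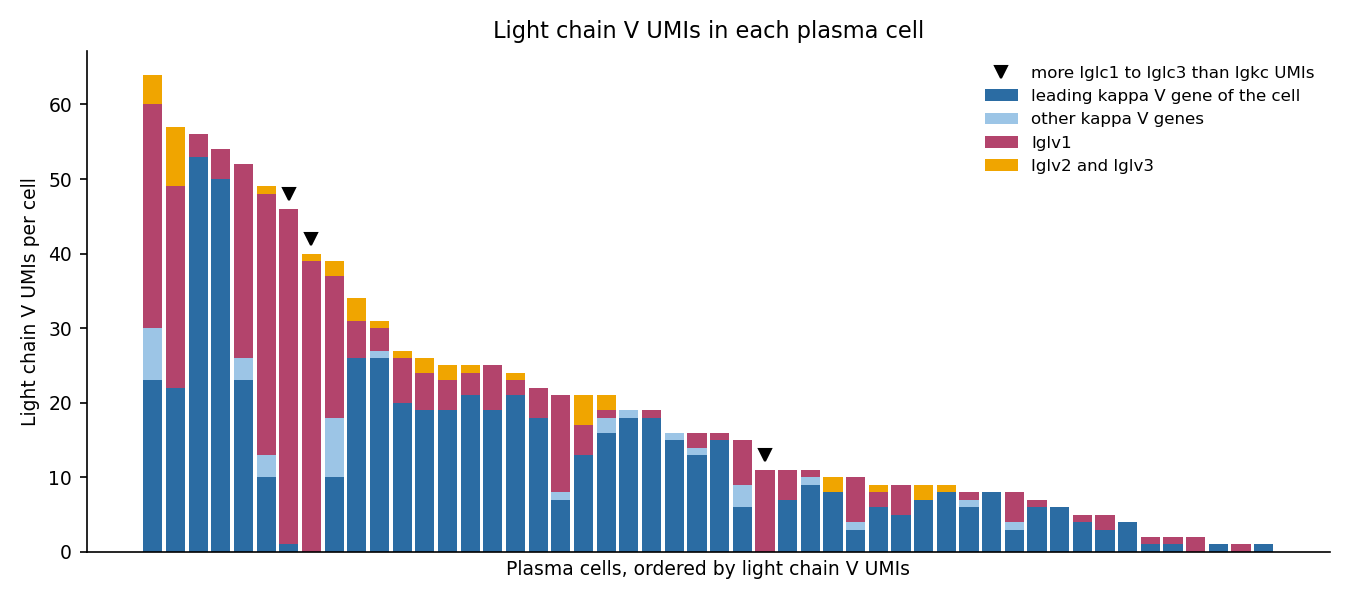
Light chain V UMIs of each of the 50 plasma cells, ordered by their total and split into the cell's leading kappa V gene, its other kappa V genes, Iglv1, and Iglv2 with Iglv3; triangles mark the 3 cells with more Iglc1 to Iglc3 than Igkc UMIs. Of the 47 cells with mostly Igkc, 37 hold some Iglv1, and in 3 other cells Iglv1 comes with lambda constant regions.

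Iglv1 in plasma cells was not confined to cells with lambda constant regions. By constant region UMIs 47 plasma cells were kappa and 3 lambda, with no mixed cell. The 3 lambda cells had 45, 39 and 11 Iglv1 UMIs beside 11105, 5485 and 3291 UMIs of Iglc1. Together that is 95 Iglv1 against 19881 Iglc1 UMIs, or 4.78 per 1000, and the 3 cells had 1 kappa V UMI in all. Of the 47 kappa cells, 37 (78.7%) had Iglv1, with 241 UMIs against 500 of Iglc1, or 482 per 1000. Both ratios count Iglc1 only. Adding Iglc3, to which Iglv1 also joins and which had 314 UMIs in the kappa cells, would lower the second ratio. The median kappa cell had 2 Iglv1 UMIs and the highest 35. Iglv1 was the first V gene in 10 kappa cells, and 6 had at least 10 of its UMIs. In 15 kappa cells Iglv1 was present with 121 UMIs in all while Iglc1 was at 0. Each of these cells still had UMIs of Iglc2 or Iglc3. In the kappa cell with 35 Iglv1 UMIs there were 10 of Igkv4-53, 4196 of Igkc, 0 of Iglc1, 1 of Iglc2 and 11 of Iglc3. The kappa cells also held 36 Iglv3 UMIs, in 16 cells, and 1621 UMIs of Iglc2 and 314 of Iglc3, 2 constant regions of similar sequence between which reads may be shared. No neutrophil, erythroid cell or cell gated on T and NK genes had an Iglv1 UMI. The table also holds an antisense gene that overlaps Iglv1, 2010309G21Rik, with 13 UMIs, 2 of them in plasma cells. Whether these Iglv1 molecules are spliced to a constant region cannot be told from counts per gene.

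**Figure D5:**
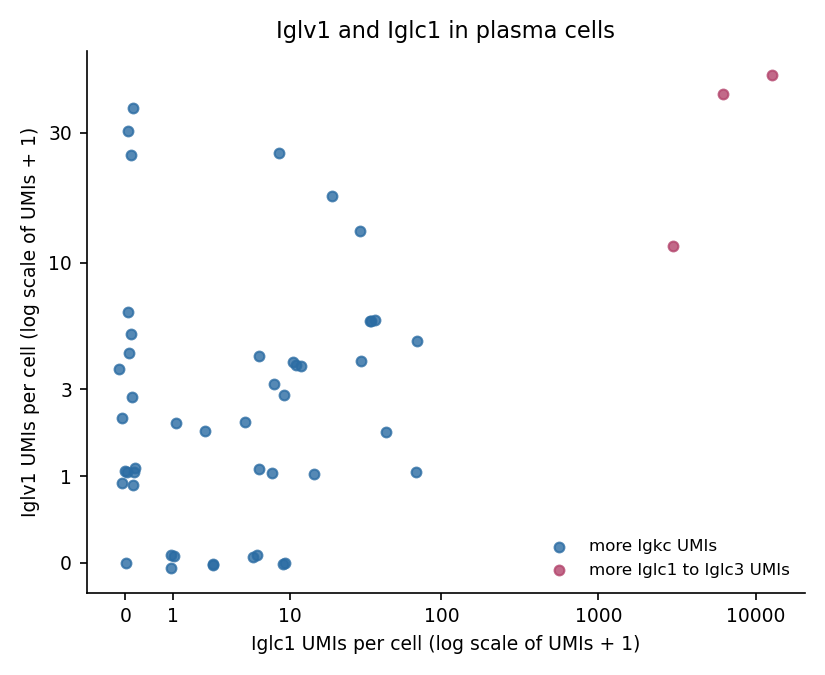
Iglv1 against Iglc1 UMIs in each of the 50 plasma cells, both as UMIs + 1 on log axes with a small random shift so that equal points can be seen. The 3 cells with mostly lambda constant regions lie at 3291 to 11105 Iglc1 UMIs, and kappa cells reach up to 35 Iglv1 UMIs at 0 Iglc1 UMIs.

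Genes that act beside the V genes were taken from lists of the pathway, and values for all genes tested are those of the same comparison. Of the light chain constant and joining list, 4 of 15 members passed the filter. All 4 were at least 2-fold higher in small pre-B than in pro-B and large pre-B cells, with a median log2 ratio of 5.38 against 0.08 for all genes. Igkc was 5.55-fold and Iglc1 29.3-fold higher. Over all genes in this comparison 10.0% were higher and 7.38% lower, which also applies to the next lists. Of the surrogate light chain genes, 3 of 4 were lower, but Igll1 and Vpreb1 set the gates. Vpreb2, which did not, went from 175 to 1.20 CPM, and Vpreb3 was 1.27-fold higher.

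Recombination and repair genes split at the same step, with 5 of 14 higher, 3 lower and a median of 0.22. Polm, a polymerase that acts at light chain joints, was 5.13-fold higher and Lig4, the ligase that seals joints, 2.00-fold higher, while Dntt was 26.9-fold lower. Rag1, also 3.49-fold higher, is part of the small pre-B gate. Of 26 regulators of the light chain loci 11 were higher and none lower, with a median of 0.84 against 0.08 for all genes. Relb was 6.01-fold, Brwd1, a chromatin reader of the kappa locus, 3.76-fold and Irf4, a factor that promotes light chain recombination, 2.13-fold higher. Of 15 receptor signalling genes 8 were higher and Cd22 was lower, with a median of 1.04. Ighd, required to be 0 in the earlier gate, is 1 of the 8, and without it 7 of 14 were higher. Syk, the kinase below the pre-B receptor, was 3.35-fold higher.

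At the next steps the lists moved differently. From small pre-B to immature cells 9 of 13 recombination genes tested were lower (11.1% of all genes), with a median of -1.53 against -0.07 for all genes, Rag1 being 0 by the gate. Iglc2 was higher and the other 3 constant region genes tested stayed within 2-fold. From immature cells to the mature B gate all 26 regulators stayed within 2-fold, while 5 recombination genes were higher (5.11% of all genes), among them Rag2, and Rag1, which the immature gate sets to 0. From the mature B gate to plasma cells 22 of 26 regulators and 15 of 15 receptor signalling genes were lower, where 64.0% of all genes were lower. Ighd defines the mature B gate, and without it 14 of 14 signalling genes were lower. Their medians were -2.14 and -3.50 against -1.30 for all genes. Igkc alone stood at 251675 CPM in these cells, and its part in the lower values was not tested. Igkc, Iglc1 and Iglc2 were higher, and Iglc3 stayed within 2-fold.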

How the data were processed

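Values are raw UMI counts in the single pooled table deposited by the authors. The submitters' processing notes name Cell Ranger 3.1.0, Seurat 3 and mm10. The read end, the strand setting and how reads shared by near-identical V genes were treated are not stated in the labels or headers. Of 15014 barcodes, 11007 had 500 or more UMIs, 200 or more genes and no more than 10% mitochondrial UMIs, and 522 doublets marked by Scrublet (4.74%, scanpy 1.11.5) were removed, leaving 10485 cells with a median of 4855 UMIs. Kept cells held 1515 of the V UMIs, removed doublets 44 and barcodes that failed the filters 211. UMIs were summed per stage. Intervals are exact (95%) and cover counting error only. Those over UMIs leave out the spread between cells, which matters most in plasma cells. Where a count is 0 the limit stated assumes 3 counts. No sample could be tied to a cell, and whether the 4 records are 4 animals is not stated, so no test was run. The fold and dominance computations were checked on simulated data. Python 3.11.15 was used with scipy 1.17.1 for intervals, numpy 2.4.6, pandas 2.3.3 and matplotlib 3.10.9.

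All 163 V symbols matched GENCODE M21 by gene identifier. Named genes were to be the 10 most often dominant in immature and mature B cells, the lambda genes, the 5 with most UMIs in plasma cells, the 2 largest and 2 smallest ratios per comparison, and the 3 with most UMIs that were dominant in no cell. Genes at 0 in plasma cells, and those of single cells, were named after their values were seen. The members and lists were chosen with earlier results of these data known.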

Additional observations from a re-analysis of the deposited data

Results flagged for a closer look

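Barcodes that failed the cell filters and entered no comparison held 211 light chain V UMIs, above the 3 counts that a 0 would allow. They lay in 181 of 4007 barcodes. By the same gates, 77 of these UMIs were in 627 small pre-B barcodes, 38 in 391 immature ones, 36 in 364 of the mature B gate and 6 in 4 plasma barcodes. The median mitochondrial share of these 4 groups was 12.1%, 12.0%, 11.8% and 15.2%.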

How the results depend on the processing

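The values rest on 1 library and on few UMIs per V gene, so per-gene differences before the plasma stage were detectable for at most 2 genes per comparison. Leaving out sample records was not run, since no cell can be tied to a record. No paired analysis was possible because there is 1 group and 1 library. Over 23 results, 152 of 201 recomputed values stayed within the counting interval, or within 1.5 times a count, and 49 did not. They are given here, with stages in the order used above. Thinning to 500 UMIs gave shares with a V UMI of 1.94% in small pre-B cells and 1.30% in the mature B gate. Thinning to 2000 gave 3.11% in pro-B and large pre-B, 6.90% in small pre-B, 4.60% in immature cells, 6.16% in the mature B gate and 75.5% in plasma cells. Unthinned shares were 7.36%, 11.1%, 8.52%, 10.4% and 100%. In plasma cells, CPM over genes other than immunoglobulins gave 1447 for kappa V and 856 for lambda V. Means of CPM over cells gave 36.7 for kappa V in small pre-B and 32.6 in immature cells, and 5.06 for lambda V before the plasma stage. The share of plasma cells with a dominant gene was 83.7% at a limit of 60%, 25.6% at 90% (8 genes), 65.1% with each cell thinned to 5 V UMIs, and 88.9% over kappa V UMIs alone. Without a filter beyond 1 UMI, V genes higher and lower by 2-fold numbered 31 higher in small pre-B cells, 15 higher and 23 lower in immature cells, 21 and 14 in the mature B gate, and 35 and 20 in plasma cells. With at least 10 UMIs, 4 were higher in small pre-B cells, 1 higher in immature cells, 1 lower in the mature B gate, and 21 higher and 1 lower in plasma cells. Counting at most 5 UMIs per gene and cell left 6 higher in plasma cells. At most 5% mitochondrial UMIs left 26 pro-B and large pre-B, 52 small pre-B, 15 immature, 12 mature B gate and 43 plasma cells. The share with a V UMI was then 0% in pro-B and large pre-B cells, 0% in immature cells and 7.14% in the mature B gate. Kappa V was at 13.2 CPM in small pre-B and 0 in immature cells, lambda V at 2.10 CPM before the plasma stage, and 0 V genes were higher in small pre-B cells, 0 lower in immature cells and 0 higher in the mature B gate. At most 30% gave 1 V gene lower in plasma cells. Stricter gates gave a share of 1.42% and 0 V genes higher in the mature B gate. The mature B gate with Ms4a1 and without Rag1 or Il2ra gave 16.7 CPM of kappa V and 0 V genes higher.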
